A study of Drosophila melanogaster with 4 samples.

Results

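Glutamate and GABA metabolism and transport were followed in the heads of untreated male flies through 5 genes: Gad1, Gs2, Eaat2, Gdh and P5CDh1. The genes were taken by current symbol through the Entrez identifier of the platform annotation. All 5 were measured, among 2406 measured genes in all. They were represented by 6 cDNA clones, of which 5, 1 per gene, had values, out of 4208 measured clones. The second clone of Gad1 had a value on 0 arrays.

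Glutamate is the main excitatory transmitter of motor synapses in flies and is also the precursor of GABA, the main inhibitory transmitter of the brain. Neurons that use GABA make it from glutamate by decarboxylation, while glial cells take amino acid transmitters up from the extracellular space and turn glutamate into glutamine. In mitochondria glutamate is formed from proline and exchanged with 2-oxoglutarate of the TCA cycle, so the same amino acid links transmission with energy metabolism.

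On each of the 4 NF-NF microarrays a pool of heads labelled with Cy5 was set against another labelled with Cy3. All flies were wild-type Oregon-R males, unmated, 3-4 days old and kept on normal food (NF) at 24°C in vials of 30. Per the labels, both pools of replicates 2 to 4 stayed 12 hrs in the treatment vessel. On replicate 1 the labels give 12 hrs for the Cy5 pool and 6 hrs for the Cy3 pool. No pool received a drug, and the arrays served as the control of a study of pentylenetetrazole (PTZ), a convulsant that blocks GABA receptors. Whole heads with eyes were pooled, so a value mixes all cell types of the head, and fewer cells of a type and less RNA per cell cannot be told apart.

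The measurement was the log2 ratio of Cy5 over Cy3. Without an effect of the dyes, a value of 0 stands for equal amounts in the pools, and a negative value for less in the pool carrying Cy5 by its label. On each array dye and pool went together, so a dye effect on a clone and a difference between pools cannot be told apart. The study's methods mention dye-swapped slides among the 4, which are not identified in the sources used here, so the direction holds only as far as the labels do. The ratios hold no level of a gene within the head. Values were present for 8429, 8414, 7966 and 2240 of 27648 spots on replicates 1 to 4, and the array medians were 0.14, 0.00, 0.08 and -0.70. Replicate 4 thus stood apart in both respects. Values below are centred, that is, minus the array median over clones with values on at least 3 arrays. Of markers of head tissue, the photoreceptor genes inaC, inaD, Arr1 and trpl, the neuronal gene nSyb and the glial gene alrm were measured, while the defining markers elav and repo were not analysed here.

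Gad1 (CG14994), the neuronal glutamate decarboxylase that makes GABA, had a ratio below 0 on each of its 3 arrays. Its centred log2 ratio was -0.32 on replicate 1, -0.08 on replicate 2 and -0.35 on replicate 3, with no value on replicate 4. The value of replicate 2 lay nearest to 0, and those of the other two arrays lay close together. The mean was -0.25 ± 0.14 (SD, n = 3), a ratio of 0.841. Its duplicate spots stood far apart, at 0.07 and -0.42 as deposited on replicate 1 and at -0.02 and -0.52 on replicate 3. These gaps of 0.492 and 0.491 were larger than those of 97.8% and 95.9% of the duplicate pairs on the same arrays, where the median gap was 0.115 and 0.124. On replicate 2 the gap was 0.103. With the first spot of the pair alone the mean was -0.07, and with the second alone it was -0.43.

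Gs2 (CG1743), a glutamine synthetase, the glial enzyme that turns glutamate into glutamine, was low on a pair of arrays and not on the other. Its centred log2 ratio was -0.48 on replicate 1, 0.10 on replicate 2 and -0.41 on replicate 3. On replicate 1 only 425 of 4208 clones were lower, which placed it at percentile 10.1, whereas it was at percentile 71.5 on replicate 2 and at percentile 14.2 on replicate 3. The mean was -0.26 ± 0.31 (SD, n = 3), so the spread between arrays exceeded the mean. Without replicate 1 it was -0.16, and without replicate 2 it was -0.45.

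Eaat2 (CG3159), a glial transporter of acidic amino acids, had the lowest mean of the 5 genes. Its centred log2 ratio was -0.86 on replicate 1, -0.11 on replicate 2, -0.29 on replicate 3 and -0.08 on replicate 4. Replicate 1 was far below the other 3 arrays, with only 70 of 4208 clones lower. The mean was -0.33 ± 0.36 (SD, n = 4), a ratio of 0.793, and without replicate 1 it was -0.16. As deposited, Eaat2 was at -0.72 on replicate 1 and at -0.78 on replicate 4, where the array as a whole lay low.

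Gdh (CG5320), the mitochondrial glutamate dehydrogenase that exchanges glutamate with 2-oxoglutarate, did not keep 1 sign. Its centred log2 ratio was -0.22 on replicate 1, 0.06 on replicate 2, -0.28 on replicate 3 and 0.28 on replicate 4. The mean was -0.04 ± 0.26 (SD, n = 4). As deposited the value of replicate 4 was -0.42, the lowest of the 4, so the order of the arrays for this gene rested on the centring.

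P5CDh1 (CG7145), the mitochondrial enzyme that completes the breakdown of proline to glutamate, was the steadiest of the 5 genes. Its centred log2 ratio was -0.21 on replicate 1, -0.13 on replicate 2 and -0.19 on replicate 3. The mean was -0.18 ± 0.04 (SD, n = 3), and only 4.82% of the clones with values on 3 arrays had a lower SD. Its duplicate spots differed by 0.046, 0.068 and 0.057 on the 3 arrays.

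**Figure D1:**
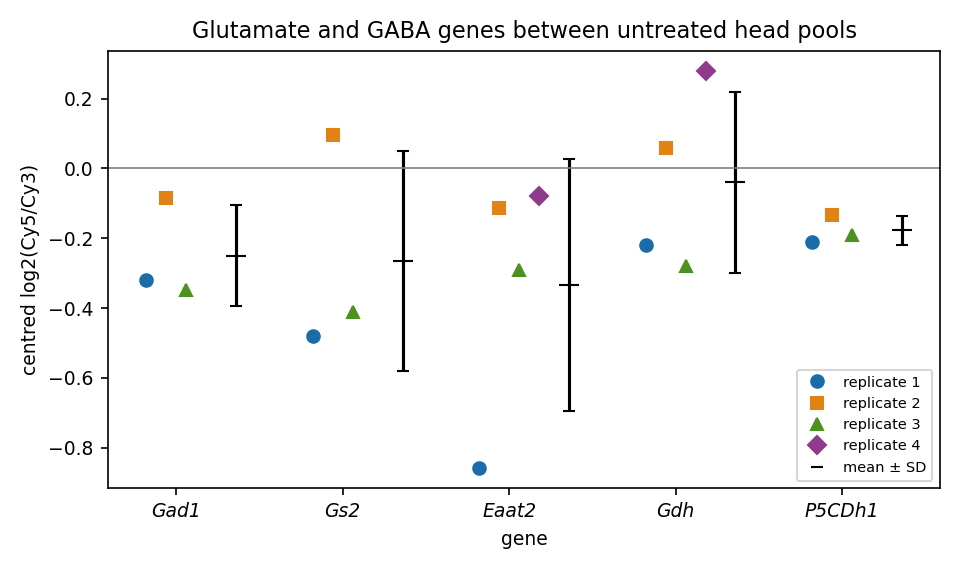
Centred log2 ratio of Cy5 over Cy3 (vertical axis) of the 5 genes on each array, 1 point per array, with the mean and SD over the arrays beside the points. Replicate 1 of Eaat2, at -0.86, is the lowest point, and the highest point is Gdh on replicate 4, at 0.28.

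**Figure D2:**
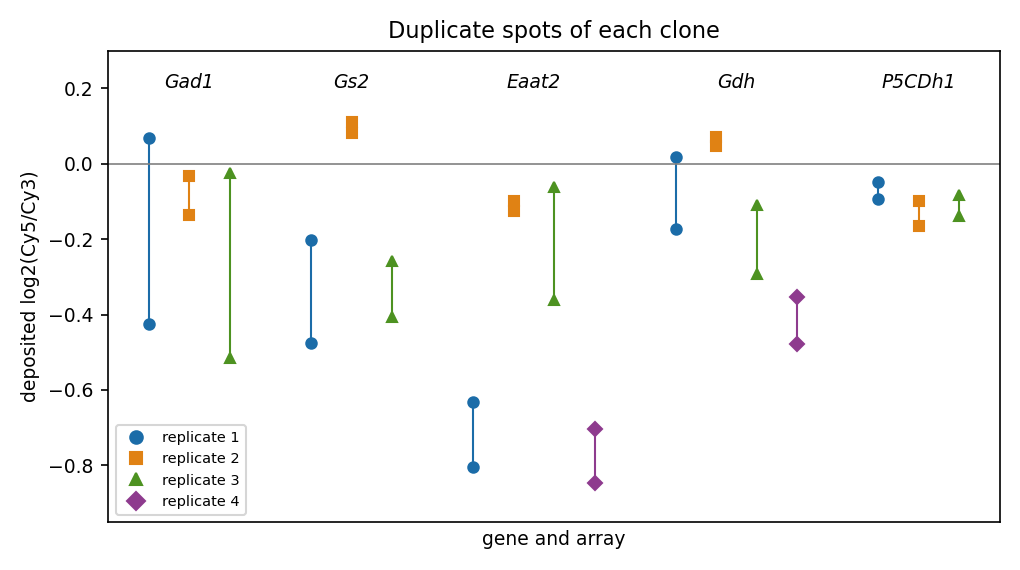
Deposited log2 ratio of Cy5 over Cy3 (vertical axis) of the duplicate spots of each clone, joined by a line, for each gene and array. The widest pairs are those of Gad1 on replicates 1 and 3, 0.492 and 0.491 apart.

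The first comparison asked whether any of these ratios differed from 0, the value of a transcript equal in both pools if the dyes had no effect. With limma, the adjusted p over all clones was 0.138 for Eaat2, 0.150 for Gad1, 0.217 for Gs2, 0.232 for P5CDh1 and 0.823 for Gdh, so 0 of 5 passed at 0.05. None of the 4208 clones did either (0 called, 0%), whereas 1272 (30.2%) had an unadjusted p under 0.05 in limma. Gad1 and Eaat2 were 2 such clones. The standard errors lay between 0.0915 for P5CDh1 and 0.131 for Gs2 and Eaat2. The moderated 95% interval of Eaat2 ran from -0.64 to -0.03, that of Gad1 from -0.49 to -0.01, that of Gs2 from -0.57 to 0.04, that of P5CDh1 from -0.39 to 0.04 and that of Gdh from -0.29 to 0.21. The study's methods name a 1-class form of SAM, a permutation method that gives false discovery rates. The paper's own SAM of the control arrays detected no differentially expressed gene below a very high false discovery rate. A rebuild on the centred values, with its own permutation settings, called 203 clones lower and 43 higher at a false discovery rate under 0.05 (5.85% of clones). The calls of the rebuild thus do not stand for the paper's result. In the rebuild the rate of the 5 genes was 6.69% for P5CDh1, 14.6% for Gad1, 23.8% for Eaat2, 31.5% for Gs2 and 87.3% for Gdh.

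The mean of all 5 genes lay below 0, as did that of 2127 of 4208 clones (50.5%). Gad1, Eaat2 and P5CDh1 (3 of 5) were below 0 on every measured array, as were 1058 of 4208 clones (25.1%). For clones measured on replicates 1 to 3 alone, like Gad1 and P5CDh1, the share was 27.1%, and for clones on all 4 arrays, like Eaat2, it was 15%. The median of the 5 means was -0.25, against 0.00 over all clones. The means of Eaat2, Gs2, Gad1, P5CDh1 and Gdh lay at percentiles 11.3, 16.6, 17.8, 24.7 and 43.7 of all clones, so none stood at the edge of the distribution. Neighbours in this order differed by less than the SD over arrays of the more variable gene.

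**Figure D3:**
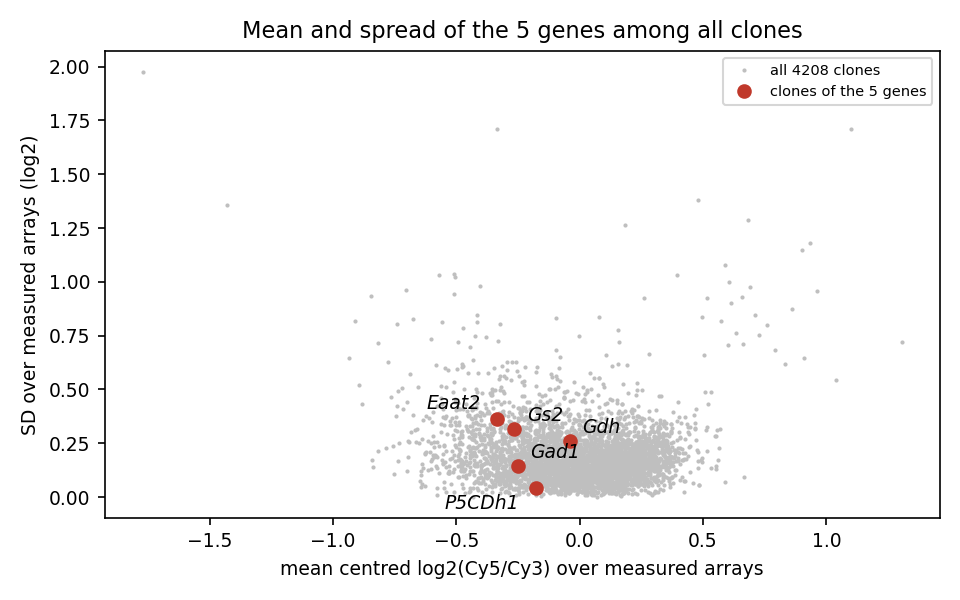
Mean (horizontal axis) and SD (vertical axis) over the measured arrays of the centred log2 ratio of all 4208 clones in grey, with the clones of the 5 genes in red. The 5 genes lie within the cloud of clones, from -0.33 for Eaat2 to -0.04 for Gdh.

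The genes shared a pattern over the arrays. Replicate 2 was the highest of replicates 1 to 3 for 5 of 5 genes. The mean of the 5 was -0.42 on replicate 1, -0.03 on replicate 2 and -0.30 on replicate 3, and that of Gdh and Eaat2, the only genes measured on replicate 4, was 0.10 there. The same order was seen in 35.8% of 3976 clones with values on these arrays and in 57.3% of the 1974 of them with a mean below 0. This pattern was chosen after its values were seen. Replicate 2 also had the narrowest spread over clones, with an SD of centred values of 0.231 against 0.335, 0.379 and 0.367 on replicates 1, 3 and 4. Values on replicate 2 thus lay nearer to 0 in general, and the part of this spread in the pattern was not tested. Marker lists of other cell types also differed between the arrays, but their members did not all move together. The mean of 4 of 7 listed fat body markers was 0.54 on replicate 1, 0.22 on replicate 2 and 0.43 on replicate 3. On replicate 4 the mean of 2 of them was 0.95, with Yp3 at 2.08 and apolpp at -0.17. The yolk protein genes Yp3 and Yp2 averaged 1.31 and 0.52 over their arrays, whereas Lsp2 and apolpp averaged 0.05 and -0.07. The list mean was thus set by the yolk protein genes and does not stand for the fat body as a whole. The mean of 4 of 14 photoreceptor markers was -0.05, 0.23 and -0.14 on replicates 1 to 3, and the only measured one of 6 muscle markers, Act88F, was at -0.11, 0.22 and -0.36. The mean of the photoreceptor list was thus highest on replicate 2, as were the 5 genes and Act88F, although inaD was lowest there, at 0.18. The mean of the fat body list was lowest on replicate 2 through Yp3 and Yp2, whereas Lsp2 and apolpp were highest there, at 0.12 and 0.13. The part of these markers in the values of the 5 genes was not tested. Gene by gene, the named clone nearest to Gad1 over the same arrays was that of CG2082, with a root mean square difference of 0.0226 over 3 arrays, and that nearest to Gs2 was CG31705 (0.0357). For P5CDh1 the nearest was TFAM (0.00766), each out of 1971 named clones. Over 4 arrays and 435 named clones, CG6357 was nearest to Eaat2 (0.0853) and a clone of Obp56h to Gdh (0.0581).

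The next comparison set the neuronal step of the pathway against the glial steps within each array, where the array centring cancels. Gad1 minus the mean of Gs2 and Eaat2 was 0.35 on replicate 1, -0.08 on replicate 2 and 0.00 on replicate 3. The array with the large difference was that on which Eaat2 was at its lowest. The mean difference was 0.09 ± 0.23 (SD, n = 3), and an exact permutation test over the sign patterns of the arrays, two-sided, gave p = 0.75, where 3 arrays cannot go below 0.25. Gad1 minus Gs2 was 0.16, -0.18 and 0.06 in the same order of arrays and averaged 0.01 ± 0.18 (exact permutation p = 1). Gad1 minus Eaat2 was 0.54, 0.03 and -0.06, with a mean of 0.17 ± 0.32 (exact permutation p = 0.75). The neuronal gene was thus above Gs2 on replicates 1 and 3 and above Eaat2 on replicates 1 and 2, each by a mean smaller than the spread. Gad1 minus the mean of both averaged 0.27 with the first duplicate spots alone and -0.09 with the second alone.

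**Figure D4:**
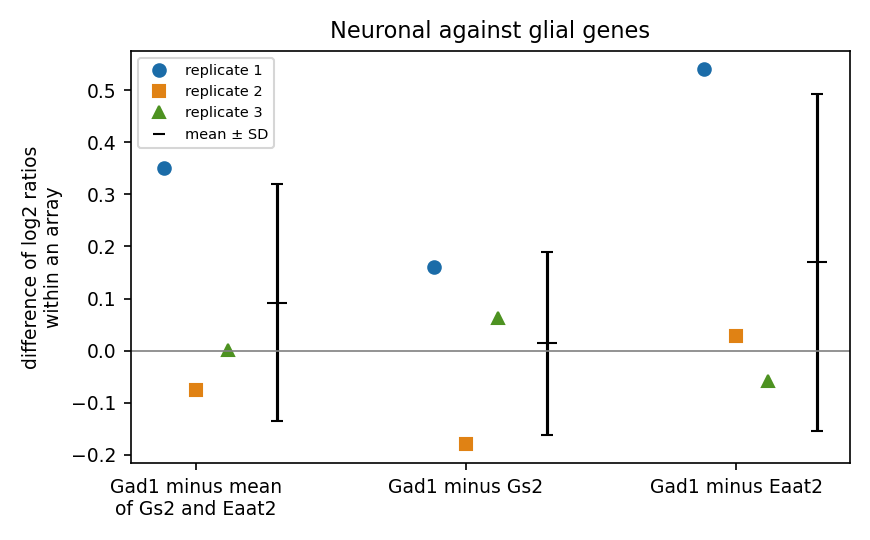
Difference of log2 ratios within an array (vertical axis) between Gad1 and the mean of Gs2 and Eaat2, Gs2 alone and Eaat2 alone, 1 point per array with the mean and SD beside them. Replicate 1 gave the highest difference in each comparison, at 0.35, 0.16 and 0.54.

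Genes of the same step were compared in the same way. Gs2 minus Eaat2, within the glial step, was 0.38, 0.21 and -0.12 on replicates 1 to 3 and averaged 0.16 ± 0.25 (n = 3, exact permutation p = 0.5). P5CDh1 minus Gdh, within mitochondria, was 0.01, -0.19 and 0.09 and averaged -0.03 ± 0.14 (n = 3, exact permutation p = 1). Over the 5 differences the Benjamini-Hochberg adjusted p was 1 for each.

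Marker genes of neurons and glia without the 5 genes gave a mean difference below 0, whereas the comparison above had no settled sign. Of 19 neuronal markers listed 5 were measured, and 4 of these were below 0 on every measured array, as were 25.7% of all genes. The lowest was Rab3, which encodes a vesicle-bound GTPase, at -0.48 ± 0.22 (SD, n = 3). The neuronal synaptobrevin, nSyb, was above 0 on every measured array at 0.22 ± 0.08 (n = 3), as were 24.1% of all genes. Of 16 glial markers listed 4 were measured, alrm, loco, Gli and Tret1-1. Of these 0 were below 0 on every measured array, and their means lay between -0.12 and 0.16. The mean of the neuronal list minus that of the glial list was -0.18, -0.11, -0.10 and -0.19 on the 4 arrays in turn. It averaged -0.15 ± 0.05 (SD, n = 4). On replicate 3 Rab3 had no value and the neuronal list held 4 genes. On replicate 4 the neuronal list held 3 genes and the glial list 1.

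Other enzymes of the pathway were measured for 4 of 14 genes listed. Gs1, the second glutamine synthetase of the fly, which is mitochondrial, was at -0.47, -0.19 and -0.33 on replicates 1 to 3, so that it was below 0 on every measured array, unlike Gs2. Its mean was -0.33 ± 0.14 (SD, n = 3). Ssadh, which oxidizes succinic semialdehyde in the breakdown of GABA, was at -0.43 on replicate 1, 0.24 on replicate 2 and -0.09 on replicate 3, with a mean of -0.09 ± 0.33. Its values went in both directions, as did those of slgA, the proline dehydrogenase that acts before P5CDh1, at 0.06 ± 0.12 (n = 3), and of CG9674, a predicted glutamate synthase, at -0.12 ± 0.18 (n = 3). Got1 and Got2, the aspartate aminotransferases, were not analysed here, and Gabat, the GABA transaminase, had a clone but no value.

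Receptors were seen less. Lcch3, a subunit of GABA-gated chloride channels, was at -0.37, -0.24 and -0.44 on replicates 1 to 3 and so below 0 on every measured array, with a mean of -0.35 ± 0.10 (SD, n = 3). It was the only measured gene of the 7 GABA receptor genes listed. GluRIIA, a subunit of the glutamate receptor of body-wall muscle synapses, was at -0.05, -0.23 and 0.10, with a mean of -0.06 ± 0.17 (n = 3), and was the only measured gene of the 16 glutamate receptor genes listed. Of 5 transporter genes listed, 2, the GABA transporter Gat and the cystine-glutamate transporter gb, had clones, and 0 had values. In a limma fit on 2406 genes, 0 of the 6 measured genes of these lists passed, and 0 genes in all (0%), although 730 genes had an unadjusted p under 0.05. In that limma fit Lcch3 and Gs1 had the lowest adjusted p of the lists, with 0.0940 and 0.0999. Below 0 on every measured array were 2 of these 6 genes and 25.7% of all 2406, and the median of the 6 means was -0.11.

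Of 10 TCA cycle genes listed, 2 were measured. Ogdh, a subunit of the complex that uses the 2-oxoglutarate which Gdh forms, was at -0.42, -0.24 and -0.35 on replicates 1 to 3, and so below 0 on each, unlike Gdh. Scsalpha1, a subunit of the next enzyme of the cycle, was at -0.59, 0.15 and -0.81. Replicate 2 was the highest for both, as for the 5 genes and for 57.3% of clones with a mean below 0 over replicates 1 to 3. In the same limma fit their adjusted p was 0.0969 and 0.169, so neither passed.

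Values also moved with the position of a clone in the table. The median of the 49 rows around a spot, of which few held a value, was taken on each array. Around Eaat2 this median, after centring, was -0.73 on replicate 1, -0.15 on replicate 2, -0.47 on replicate 3 and -0.10 on replicate 4, so the neighbouring clones were low on the arrays where Eaat2 was low. With it subtracted, the mean of Eaat2 was 0.03, but with the median of the 49 nearest spots holding a value subtracted instead, a window added after the data were seen, it was -0.13. Around Gdh the median was -0.61, -0.17, -0.57 and 0.21, and Gdh was above it on each of the 4 arrays, by 0.39, 0.23, 0.29 and 0.07. Against the wider window Gdh differed by 0.10, 0.25, -0.09 and 0.18 and did not keep 1 sign. P5CDh1 differed from its neighbours by -0.05, 0.04 and 0.03 on replicates 1 to 3. Gad1 was below its neighbours on each of its 3 arrays, with a mean difference of -0.23, or -0.13 against the wider window. Gs2 was below them on replicates 1 and 3 and above on replicate 2, with a mean difference of -0.17, or -0.09 against the wider window. Gad1 was thus below 0 on every measured array against the array median and against its neighbours in either window. The share of all clones below 0 by all of these measures was not counted. Against the array median its mean was -0.07 on the first duplicate spot alone and -0.43 on the second alone. After subtraction of the median of the 49 rows, 851 of 4208 clones (20.2%) were below 0 on every measured array, and 902 (21.4%) were above it, as was Gdh. Between 6 and 20 spots with a value, the gene's own included, lay in the 49 rows, and the part of position in the results was not tested further.

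**Figure D5:**
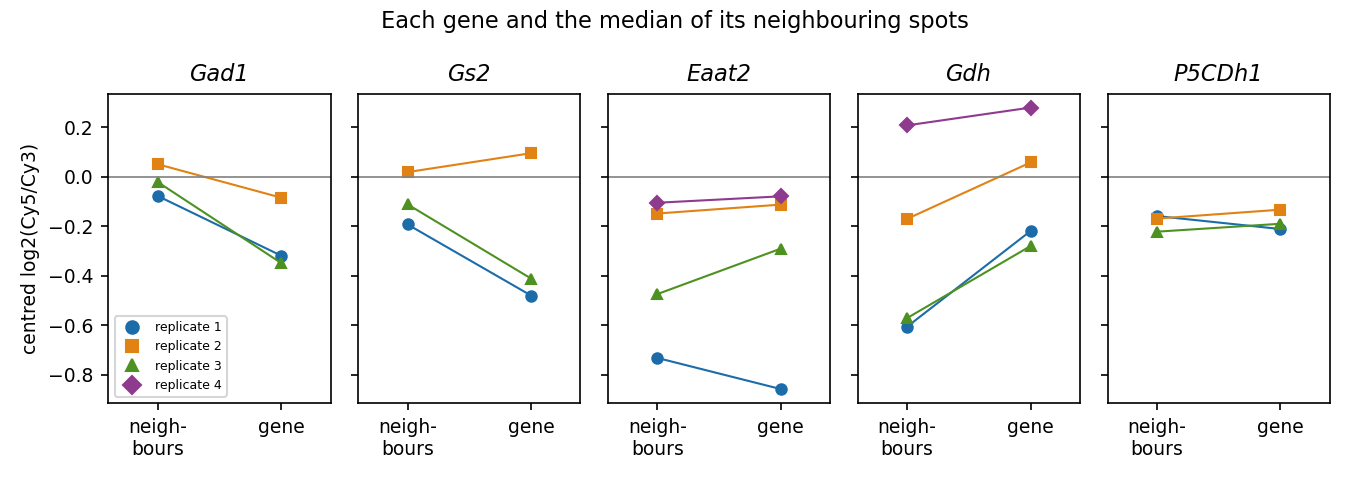
Centred log2 ratio (vertical axis) of the median of the 49 rows around each gene's spots (left in each panel) and of the gene itself (right), joined for each array. The lines of Gdh rise on all 4 arrays, those of Gad1 fall on all 3, and those of P5CDh1 change by -0.05 to 0.04.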

How the data were processed

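Total RNA of frozen male heads was amplified, labelled as antisense RNA with Cy5 or Cy3 and hybridized to 4 CDMC cDNA slides. The authors quantified spots with GenePix Pro 6.0, carried out ratio-based normalization in Acuity 4.0 and emptied spots that failed their filters on saturation, flags, uniformity and signal-to-noise. The deposited values are log2 ratios of Cy5 over Cy3, with unequal array medians. Scanner intensities were not used here, and the number of arrays limits the precision.

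Adjacent duplicate spots were averaged to 13824 clones, of which 4208 with values on at least 3 arrays were kept and centred on the array medians. Probe names were updated through Entrez identifiers to RefSeq symbols (Release 6) for 97.9% of 15218 annotated probes. Of the 4208 clones, 2551 had 1 gene, 16 several and 1641 none. Ratios were tested against 0 with limma 3.58.1 in R 4.3.3 (intercept, empirical Bayes, two-sided, Benjamini-Hochberg over all clones), and differences within arrays by exact permutation over sign patterns. SAM was rebuilt with 16 sign patterns and an exchangeability constant at percentile 5. The limma script was also run on simulated data with independent noise for each clone. That setting lacks the shifts shared by neighbouring clones of the real arrays, so the run is not used as support. The labels number the arrays as replicates of 1 group, and p-values measure the spread between these arrays. The text names the 5 genes, the measured genes of the pathway lists, the nearest clone of each gene, and markers where a result turned on them. TCA cycle genes and neighbouring rows were described in the same way. The genes and lists were chosen with earlier results of these data known. Alternatives covered centring, position, dye direction, duplicate spots, filters, the test and each array left out.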

Additional observations from a re-analysis of the deposited data

Results flagged for a closer look

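Of 8 sets of 4 values examined, 2 had an array whose gap to the nearest of the others exceeded Dixon's 95% critical value, where chance gives about 1 in 20. Both concerned replicate 4. It had values for 2240 spots, and its median log2 ratio was -0.697. Of the 5 genes, Eaat2 and Gdh were measured on it, and their own 4 values held no such gap, with the largest gap of Eaat2 at 0.729 of its range and that of Gdh at 0.396. Without replicate 4 the mean centred log2 ratio was -0.42 for Eaat2 and -0.15 for Gdh. The cause of the low count and median was not tested.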

How the results depend on the processing

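With limma, 0 of 4208 clones passed on centred values, with 1272 at an unadjusted p under 0.05, and 0 of the 5 genes passed under any of the alternatives run in limma. The count of clones called was 1 when clones on 2 or more arrays were kept and 246 with the rebuilt SAM. The count was 2 with the median of the 49 nearest spots holding a value subtracted, a window chosen after the data were seen. It lay between 0 and 380 with an array left out, at 84 without replicate 1 and 380 without replicate 4, where clones needed 2 remaining values. Over the 49 rows of the table, the mean turned to 0.03 for Eaat2, 0.245 for Gdh and 0.00517 for P5CDh1, and over the 49 spots with a value to 0.111 for Gdh and 0.0275 for P5CDh1, while Eaat2, Gad1 and Gs2 were at -0.13, -0.13 and -0.09. Signs of arrays were turned because dye-swapped slides are not identified. With replicates 2 and 3 turned, the mean was 0.0379 for Gad1, 0.0707 for Gdh and 0.0371 for P5CDh1. With replicates 3 and 4 or replicate 3 alone turned it was 0.00908 for Gs2, and with replicate 3 alone 0.0999 for Gdh. With replicate 1 turned it was 0.0549 for Gs2, 0.0944 for Eaat2 and 0.0696 for Gdh. Gdh was at 0.0256 on the first duplicate spot alone, and lay between -0.147 and 0.0401 with an array left out, above 0 without replicate 1 or 3. Gad1 minus the glial genes was -0.165 over the 49 rows, -0.141 with replicate 1 turned and -0.0893 on the second duplicate spot alone. It lay between -0.037 and 0.176 with an array left out, below 0 without replicate 1. A different measure, the neuronal minus the glial marker list, which hold none of the 5 genes, averaged -0.146 over 4 arrays. Genes with 1 sign on every measured array numbered 3, but 0 with replicates 2 and 3, replicates 3 and 4, replicate 1 or replicate 3 turned, and 1 with replicate 2 turned. The causes of these changes were not tested. No paired analysis was possible because the arrays form 1 group, so that no other group shares their replicate numbers.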
